A study of Homo sapiens with 2 samples.

Results

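The data described here are the messenger RNA levels of 10 genes that act in transcription elongation, namely CDK9, CCNT1, CCNT2, CDK12, CDK13, CCNK, SUPT5H, SUPT6H, TOP1 and TCEA1, out of 18239 genes with a probe set annotated to 1 symbol. Members were listed by symbol, with earlier results of these data known. Every probe set annotated to a single member symbol was taken, which gave 30 of the 49386 probe sets on the array. The cells were GFP-SAS, a line of human tongue squamous cell carcinoma that carries green fluorescent protein, and both groups received 25 nM of an LNA/DNA oligonucleotide (a short antisense strand stiffened with locked nucleotides) for 24 h. In the anti-miR group the oligonucleotide was directed against miR-361-3p, and in the control group it had no target. Each group was 1 Affymetrix array labelled from 10 ng of total RNA, so no value below has a replicate error and no p-value is given. The study set these arrays side by side to ask which transcripts change when the microRNA is blocked.

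RNA polymerase II pauses shortly after it starts a gene and is released by P-TEFb, the kinase CDK9 bound to cyclin T1 or T2. CDK12 and CDK13, both bound to cyclin K, phosphorylate the tail of the polymerase further into the gene, and SPT5 (SUPT5H) and SPT6 (SUPT6H) travel with it. TOP1 removes the twist that builds up in the DNA around the moving polymerase, and TFIIS (TCEA1) restarts polymerases that have slid backwards. Long genes are known to depend strongly on several of these steps, CDK12 and TOP1 among them.

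The sequence of the inhibited microRNA is shown because it defines the treatment, next to the other arm of the same hairpin, which the inhibitor was not directed against. Capitals mark the seed, bases 2 to 8 from the 5′ end, and both sequences come from RefSeq (GRCh38.p14).
hsa-miR-361-3p: uCCCCCAGgugugauucugauuu
hsa-miR-361-5p: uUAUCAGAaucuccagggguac
The seeds differ, and the RNA letters that pair with the seed of miR-361-3p are CUGGGGG. Whether the members' transcripts carry that site was not analysed here.

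Values are RMA expression values on the log2 scale, and every difference was taken as anti-miR minus control. Probe sets that stayed under the array median on both arrays (4.64 for the anti-miR, 4.63 for the control) are called dim and were left out, and the rest were averaged to a gene value. All 10 members were measured, by 25 of their 30 probe sets, called retained below. The SD quoted beside a gene is the spread between its probe sets within these arrays and holds no variation between cultures. Pooled over the 6263 genes that kept more than 1 probe set it was 0.29. The highest of the 23 nonspecific control probe sets reached 7.16 with the inhibitor and 6.87 without it. Signals under these values are not shown to be above background, so a fold taken from them is not an exact size. Of the member probe sets, 12 lay above that range on both arrays, which were all those of CCNK, TOP1 and TCEA1, with 3 of CDK12 and 2 of CDK9. The 12 probe sets of the poly-A controls, which are spiked into the RNA ahead of labelling, differed by 0.32 ± 0.19 (SD), and the median gene by 0.13. The part of this offset in the members' differences was not tested. Of 5 squamous or epithelial markers with a probe set here, KRT5, SFN, CDH1 and EPCAM lay above the nonspecific range on both arrays and KRT14 lay below the medians, while none of 12 leukocyte, fibroblast, endothelial and muscle markers lay above that range.

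The members split in direction. TCEA1, CDK13 and TOP1 were at least 1.5-fold lower on the anti-miR array, CCNT2 was at least 1.5-fold higher, and 6 members lay within 1.5-fold. Over all 11272 genes measured, 14.2% were lower and 8.23% were higher by that threshold. With 10 members, 3 and 1 stand against these shares, and no statement about the group as a whole follows from counts of this size. The median member differed by 0.14, beside 0.13 for the median gene. Their differences ran from -1.03 for TCEA1 to 0.68 for CCNT2. Among the 30 probe sets 15 differed upwards and 15 downwards. At 2-fold TCEA1 was the single member lower and 0 were higher, beside 6.98% and 1.23% of all genes. Among the member probe sets 3 were past 1.5-fold higher and 6 lower, against 5.04% higher and 9.87% lower of all 45253 probe sets with 1 gene symbol.

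**Figure D1:**
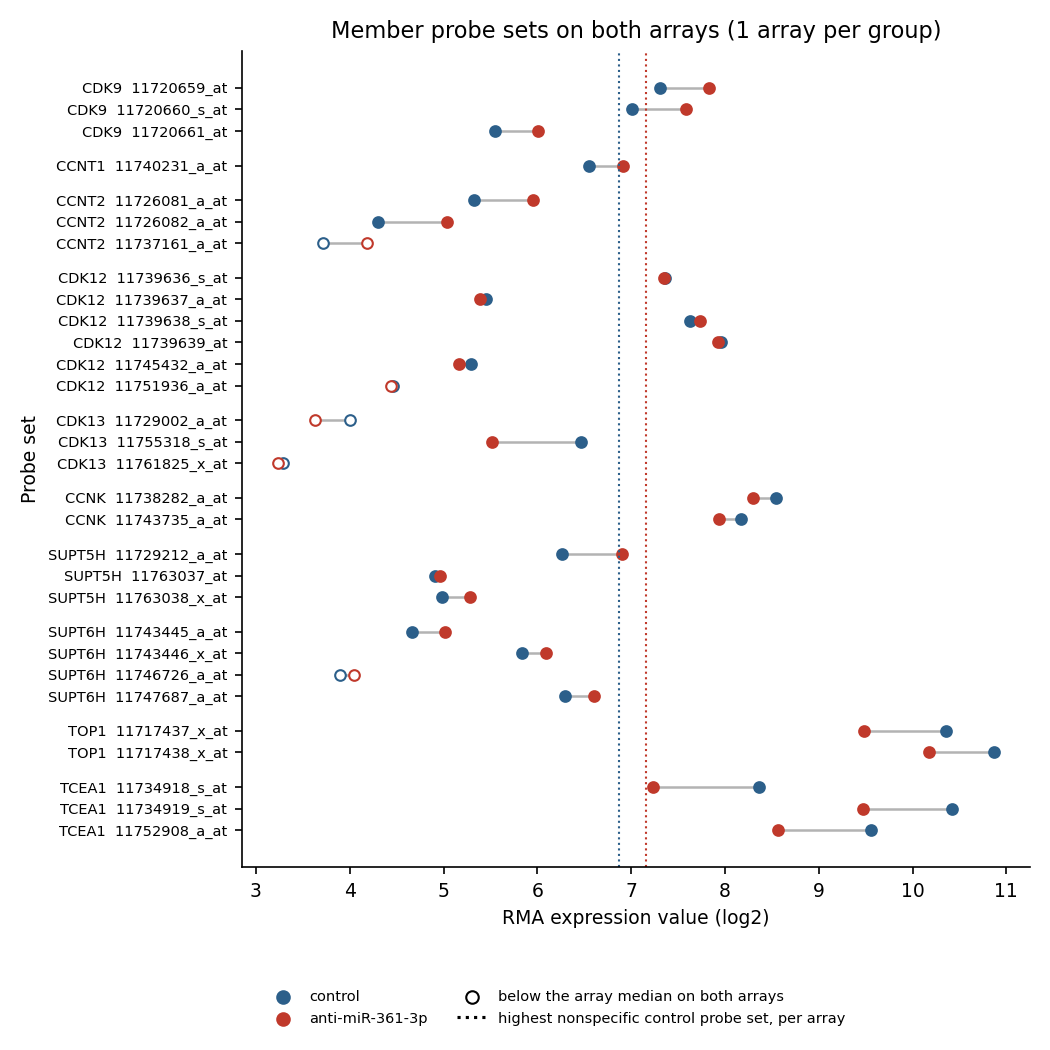
RMA expression values (log2, x axis) of the 30 member probe sets (y axis) on the control array and the anti-miR array, 1 array each. Open circles lay below the array median on both arrays, dotted lines mark the highest nonspecific control probe set of each array (6.87 and 7.16), and the red points of TCEA1 and TOP1 lie to the left of the blue ones at every probe set.

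TCEA1 encodes TFIIS, the factor that makes a backtracked polymerase cut its transcript and resume. Its probe sets read 7.23, 9.47 and 8.56 in the inhibited cells, and in the same order 8.37, 10.42 and 9.56 in the control. All 3 were lower with the inhibitor and lay above the nonspecific range on both arrays. The gene difference was -1.03 ± 0.10 (SD over 3 probe sets), which is 2.04-fold lower and rank 741 of 11272 from the lowest. Of these probe sets 2 carry the suffix _s_at, which marks probes shared by more than 1 transcript. The related genes TCEA2 and TCEA3 had no probe set above the nonspecific range. TCEA2 differed by 0.30 ± 0.15 (SD over 3 probe sets) and TCEA3 by 0.29, with probe sets at 0.12 and 0.45. The probe sets at 0.48 in TCEA2 and 0.12 in TCEA3 were retained through the anti-miR array alone. Over all probe sets, dim ones included, TCEA1 ranged from -1.14 to -0.96, TCEA2 from 0.09 to 0.48 and TCEA3 from 0.10 to 0.49.

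TOP1, DNA topoisomerase I, had values of 9.48 and 10.17 on the anti-miR array and 10.36 and 10.87 on the control array. Both probe sets were lower with the inhibitor, with differences of -0.88 and -0.69 and a gene value of -0.79 ± 0.13 (SD over 2 probe sets), or 1.72-fold lower. Both are of the _x_at kind, in which some probes can bind other transcripts. A further probe set is annotated to TOP1 together with its pseudogene TOP1P1, is no member by the rule, and read 6.76 against 7.63, a difference of -0.87. Other topoisomerases differed in both directions. TOP2B, the type II enzyme of non-dividing and dividing cells, was 2.28-fold lower (-1.19 ± 0.03, SD over 3 probe sets), further than TOP1, and their probe sets did not overlap. TOP2A, the type II enzyme of proliferating cells, differed by -0.33 ± 0.10 (SD over 3 probe sets). TOP3A differed by 0.37 and TOP3B by 0.42, each with 1 probe set retained through the anti-miR array alone.

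The P-TEFb subunits CDK9, CCNT1 and CCNT2 lay above 0, as did 62.3% of all genes, and CCNT2 alone of them passed 1.5-fold. CDK9, the kinase, read 7.83, 7.59 and 6.0 in the inhibited cells and 7.31, 7.01 and 5.55 on the control array. All 3 probe sets were higher with the inhibitor and none reached 1.5-fold. The gene difference was 0.52 ± 0.06 (SD over 3 probe sets), a fold of 1.43. CCNT1, cyclin T1, was read by 1 probe set, at 6.91 against 6.55, a difference of 0.35. CCNT2, cyclin T2, had retained values of 5.95 and 5.04 in the inhibited cells, against 5.33 and 4.30 in the control. The gene difference was 0.68 ± 0.08 (SD over 2 probe sets), or 1.60-fold. The probe set with the control value of 4.30 was retained through the anti-miR array alone, and its selection favoured a higher value there. The third CCNT2 probe set, dim on both arrays at 4.19 and 3.71, differed by 0.47. All 3 lay within the nonspecific range, so the fold of CCNT2 is not an exact size. Less the shift of the median gene, 0.13, CCNT2 differed by 0.55, short of 1.5-fold.

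CDK12 and CDK13 are kinases of closely related sequence that share cyclin K. CDK12 had 6 probe sets with differences between -0.13 and 0.10. The 3 above the nonspecific range read 7.35, 7.74 and 7.92 on the anti-miR array and 7.36, 7.63 and 7.95 on the control array. These pairs of values lie almost on top of each other, and the gene difference was -0.03 ± 0.09 (SD over 5 probe sets). CDK13 was retained through 1 probe set, at 5.52 against 6.46, a difference of -0.95 or 1.93-fold lower. Its dim probe sets read 3.63 and 3.23 with the inhibitor, against 4.0 and 3.29 without, with differences of -0.37 and -0.05. With all 3 averaged CDK13 differed by -0.46, short of 1.5-fold, and none of the 3 lay above the nonspecific range. The difference of CDK12 exceeded that of CDK13 by 0.92 at the single retained CDK13 probe set and by 0.43 with no filter, and the CDK13 probe set at -0.05 lay inside the range of CDK12. CCNK, cyclin K, read 8.29 and 7.93 on the anti-miR array and 8.54 and 8.17 on the control array. It differed by -0.24 ± 0.01 (SD over 2 probe sets), between its partner kinases.

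SPT5 and SPT6 lay on the upper side within 1.5-fold. SUPT5H, the larger subunit of the factor DSIF, read 6.90, 4.97 and 5.28 on the anti-miR array and 6.27, 4.91 and 4.98 on the control array. The brightest of these differed by 0.64, past 1.5-fold, and the others by 0.06 and 0.30, so the gene value of 0.33 ± 0.29 (SD over 3 probe sets) rests on probe sets that disagree in size. SUPT4H1, its smaller partner, differed by 0.46, with probe sets at 0.66 and 0.26 that overlap those of SUPT5H. SUPT6H, a histone chaperone, had retained values of 5.01, 6.10 and 6.61 on the anti-miR array and 4.67, 5.83 and 6.29 on the control array. All 3 were higher, and the gene difference was 0.31 ± 0.04 (SD over 3 probe sets). This is close to the difference of the poly-A controls, 0.32, as are the values of SUPT5H and CCNT1. The other array controls differed less, the hybridization controls by a mean of 0.09 and the nonspecific probe sets by 0.13. The part of any such offset in these genes was not tested.

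**Figure D2:**
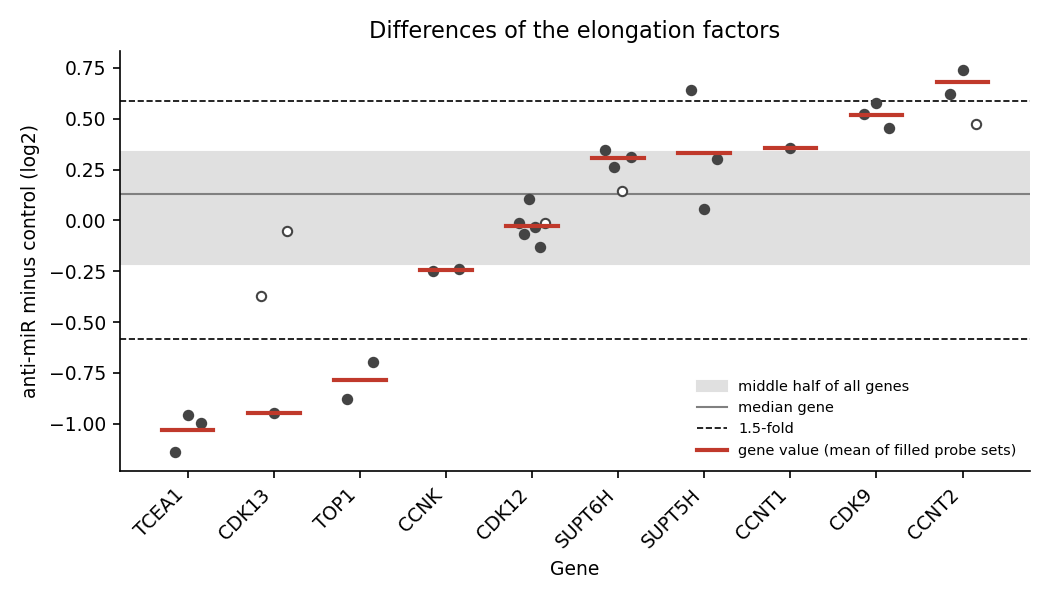
Difference of each probe set (points, anti-miR minus control, log2) for the 10 members (x axis), with red bars for the gene values and open points for probe sets below the array median on both arrays. The grey band is the interquartile range of all genes (-0.21 to 0.33) and dashed lines mark 1.5-fold. Of the red bars, only that of CCNT2 lies above the upper line, and those of TCEA1, CDK13 and TOP1 lie below the lower one.

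The members are described as factors that long genes depend on, so their differences were set against the trend with gene length, the genomic span in the RefSeq table of GRCh38.p14. Over 11266 genes with a span the median difference was 0.25 in the shortest decile and -0.64 in the longest. Within the longest decile 53.1% of genes were at least 1.5-fold lower, against 1.95% in the shortest. With no filter on dim probe sets the gap between these deciles narrowed from -0.89 to -0.21. The members themselves are mostly long, and 9 of 10 exceeded the median span of 27.6 kb. CDK9 is the exception, at 4.76 kb.

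Set against genes of their own length decile, TCEA1 and CCNT2 kept the ends of the order, while CDK13 moved towards the middle. TCEA1 (55.9 kb) lay lowest, 0.92 below its decile's median of -0.11 and at percentile 8.16 of that decile. TOP1 (95.7 kb) lay at percentile 23.9 of its decile, whose median was -0.32. CDK13 (149 kb), although 1.93-fold lower, lay at percentile 34.96 of the longest decile and so inside its interquartile range. CDK12 (106 kb) lay at percentile 69.6 of the same decile as TOP1. CCNT2 (40.5 kb) stood highest, at percentile 96.4, with a decile median of 0.05. CCNK (31.0 kb) lay at percentile 18.1, while SUPT5H (31.1 kb) and CCNT1 (28.2 kb), in the same decile as CCNK, were at 72.7 and 74.98. SUPT6H (40.5 kb) and CDK9 lay at percentiles 80.6 and 81.01 of their deciles. In all, 3 members were above, 3 below and 4 inside the interquartile range of genes of like length. That range holds about as many genes as lie outside it. These positions were computed with the filter on dim probe sets and not without it. That of CDK13 rests on its single retained probe set, and that of CCNT2 includes a probe set retained through the anti-miR array alone.

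**Figure D3:**
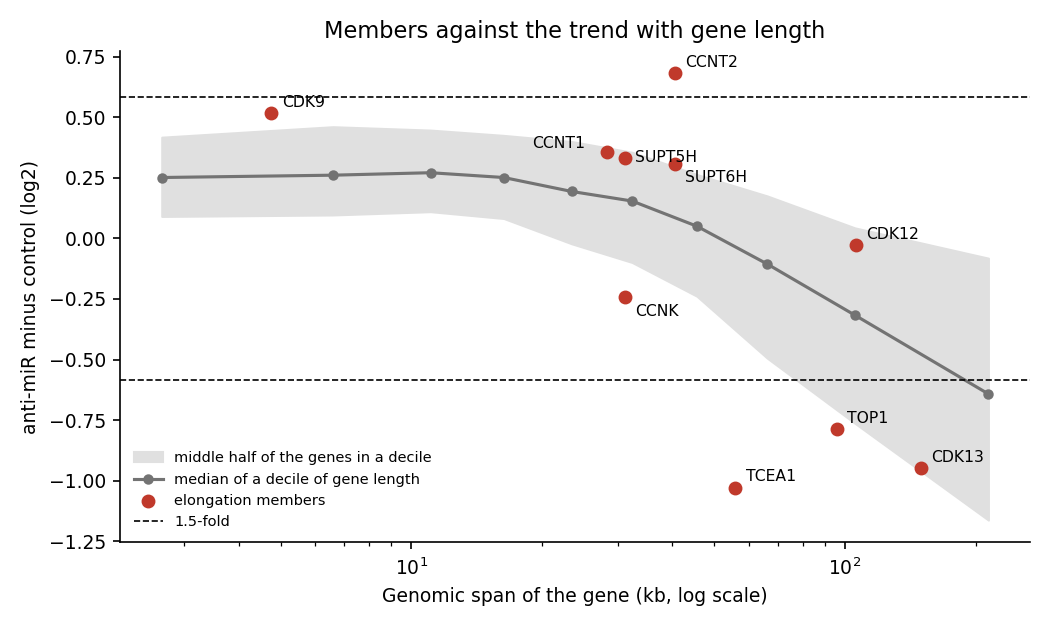
Difference (anti-miR minus control, log2, y axis) against genomic span (kb, log scale, x axis). The grey line joins the medians of the length deciles, from 0.25 to -0.64, the band is their interquartile range, and red points are the 10 members, of which TCEA1 lies furthest below the line and CCNT2 furthest above it.

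The other elongation genes were taken from 9 lists, with 53 genes listed and 49 measured. These lists were drawn up with earlier results of these data known. Of these, 5 were at least 1.5-fold higher and 10 lower, with a median of 0.14. They too parted by length. Among the 31 longer than the median gene 9 were lower (29.03%) and 1 higher, where 25.4% and 3.83% of all such genes were. Among the 18 shorter ones 4 were higher (22.2%) and 1 lower, beside 12.6% and 2.98%. The share of lower genes among the long ones is near that of all long genes. Within their own length deciles, SKIC8 lay at percentile 0.80, IWS1 at 1.60, MNAT1 at 1.86 and RPRD1A at 4.26. RTF1 lay at 4.88, SCAF8 at 5.15, TOP2B at 5.59 and CDC73 at 6.04. All of these were below the interquartile range, and the lower genes AFF1 and SETD2 were inside it. These genes were picked as lower, so low positions follow in part from that choice. Of the 10 lower genes, SKIC8 and TOP2B alone had a probe set above the nonspecific range on the anti-miR array, so the folds of the other 8 are not exact sizes. Of the 5 higher genes 2, EAF1 and CTR9, stayed past 1.5-fold once the median gene was subtracted.

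Of the proteins that bind or control P-TEFb, 4 genes were measured and 2 of them were at least 1.5-fold higher. By that threshold 8.23% of all genes were higher, with 10.7% in the length decile of HEXIM1 and 14.4% in that of MEPCE. With 4 genes, nothing about the list is read from that count. HEXIM1, which holds P-TEFb inactive in the 7SK particle and is itself a gene known to respond to P-TEFb release, was 1.57-fold higher (0.65 ± 0.21, SD over 5 probe sets). Its probe sets read from 6.48 to 8.83 on the anti-miR array and from 5.80 to 8.22 on the control array, and each was higher with the inhibitor. MEPCE, which caps the 7SK RNA, was 1.62-fold higher (8.87 against 8.17, 1 probe set). LARP7, another protein of that particle, differed by 0.16 and HEXIM2 by 0.14, both below the medians of their length deciles, 0.19 and 0.27. All 4 lay above 0, as did 62.3% of all genes. Neither HEXIM1 nor MEPCE stayed past 1.5-fold once the median gene was subtracted. Pausing factors had a median of 0.45 over 4 genes, and NELFA, a subunit of the negative elongation factor, was 1.56-fold higher (6.93 against 6.29, 1 probe set), while NELFB differed by 0.45 and NELFCD by 0.24. Of the 5 higher genes NELFA alone had no probe set above the nonspecific range on the control array.

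In the super elongation complex, which carries P-TEFb to active genes, EAF1 was 1.85-fold higher (7.80 against 6.91, 1 probe set). The scaffold AFF1 was 1.93-fold lower at its retained probe set (5.66 against 6.61), and its 4 dim probe sets differed the other way, which gave -0.05 with no filter. Its retained value lay at percentile 35.1 of the longest length decile, inside the interquartile range. AFF4, the other scaffold, differed by -0.28, with probe sets from -0.63 to 0.21, of which 1 was retained through the control array alone. ELL2, an elongation factor of the complex, differed by -0.06.

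The PAF1 complex, which binds the polymerase in place of the negative factor, had a median of -0.90 over 6 genes, and of -0.55 with no filter. SKIC8, which also serves the exosome as part of the SKI complex, was 3.01-fold lower at its retained probe set (7.30 against 8.90), and with a dim probe set that differed by 0.47 the mean was -0.56. CDC73 was 2.72-fold lower (-1.44 ± 0.10, SD over 3 probe sets), and 1 of these, at 4.51 against 5.84, was retained through the control array alone. The mean for RTF1 was 2.40-fold lower, from 3 probe sets between -2.10 and -1.06 and 1 at 0.15. CTR9 was 1.65-fold higher (9.10 against 8.38, 1 probe set), LEO1 differed by -0.53 and PAF1 by 0.15. Subunits of this complex thus lay on both sides of 0.

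Of the factors that deal with nucleosomes, IWS1, a partner of SPT6, was 2.95-fold lower (5.54 against 7.10, 1 probe set). SETD2, a histone methyltransferase that travels with the polymerase, was 2.20-fold lower (-1.14 ± 0.12, SD over 3 probe sets). It lay at percentile 25.8 of the longest length decile, inside the interquartile range. SUPT16H and SSRP1, the subunits of FACT, differed by 0.49 and 0.11. Within the TFIIS and elongin list ELOA differed most, by 0.54. MNAT1, the assembly factor of the CDK7 kinase, was 5.28-fold lower (5.23 against 7.63, 1 probe set), while CDK7 differed by -0.03 and CCNH, its cyclin, by 0.40. RPRD1A, which binds the polymerase tail, was 2.55-fold lower, with retained probe sets from -1.68 to -0.70. The lowest of these, at 4.48 against 6.16, was retained through the control array alone, and with no filter the mean was -1.12. POLR2A, the largest polymerase subunit, differed by 0.41 ± 0.16 (SD over 3 probe sets). Among termination factors SCAF8 was 2.86-fold lower (-1.52 ± 0.24, SD over 5 probe sets), and PCF11 differed by 0.57 and XRN2 by -0.40.

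**Figure D4:**
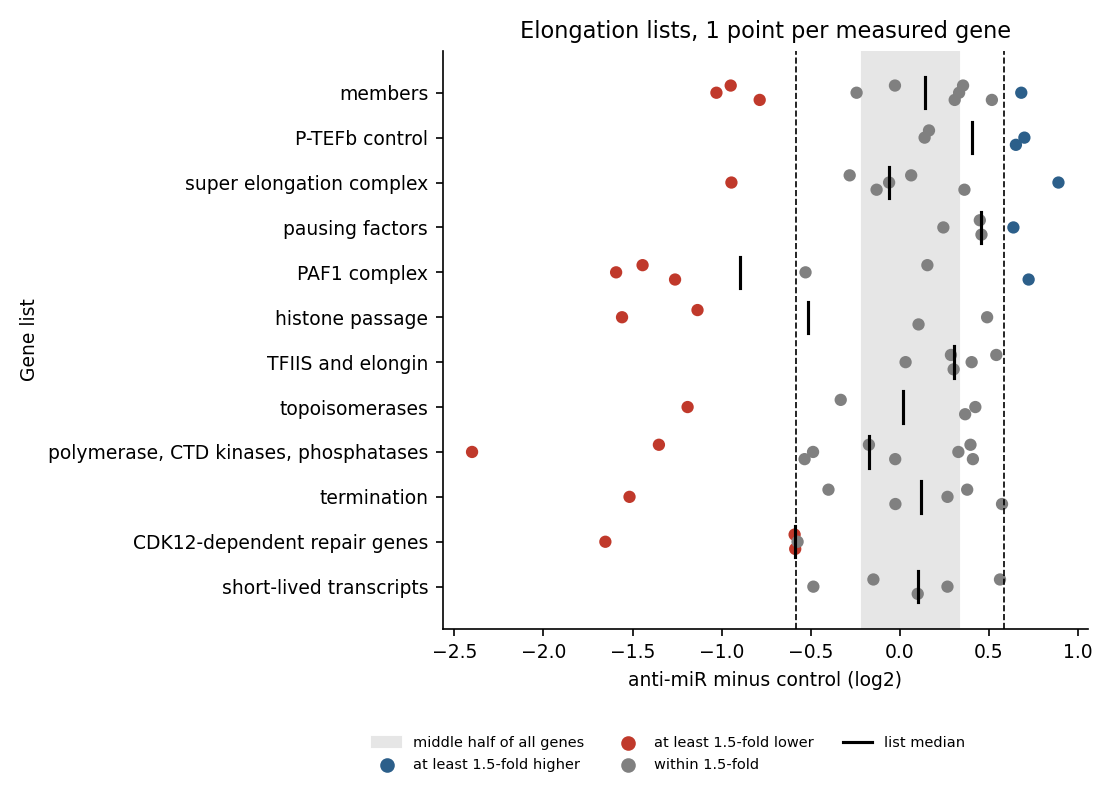
Difference (anti-miR minus control, log2, x axis) of every measured gene in the member list and 11 further lists (y axis), 1 point per gene, with black bars for list medians. The grey band is the interquartile range of all genes and dashed lines mark 1.5-fold; the PAF1 complex has a median of -0.90 with CTR9 on the other side of 0.

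DNA damage response genes known to depend on CDK12 are long, with a median span of 128 kb over the 4 measured. Of these 3 were at least 1.5-fold lower. By that threshold 20.8% of all genes were lower in the eighth length decile, which holds FANCI, 34.1% in the ninth and 53.1% in the longest. ATR, a checkpoint kinase, was 3.14-fold lower (4.91 against 6.56, 1 probe set). BRCA1 was 1.502-fold lower (-0.59 ± 0.28, SD over 4 probe sets, 1 of them retained through the control array alone), ATM differed by -0.59 at 1 retained probe set, just past 1.5-fold, and FANCI by -0.57, just short of it. With no filter BRCA1 differed by -0.51 and ATM by -0.16, both short of 1.5-fold, which left ATR alone past it. None of the 4 genes had a probe set above the nonspecific range on the anti-miR array, so their folds are not exact sizes. In their length deciles the medians were -0.32 for ATR and BRCA1, -0.64 for ATM and -0.11 for FANCI. The messenger RNA of CDK12 differed by -0.03 in the same arrays, which do not measure its protein or kinase activity. Any link between these genes and CDK12 was not tested. Of the short-lived transcripts known to need P-TEFb, 5 were measured and 0 passed 1.5-fold, where 77.6% of all genes lay within it, so nothing is read from that count. MYC differed by -0.49 (10.26 against 10.74, 1 probe set), FOS by -0.15, MCL1 by 0.10, JUNB by 0.27 and IER2 by 0.56.

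Upstream sequence is shown for CCNT2, TOP1 and CDK12, the members above, below and near 0, so that a reader can set their promoters side by side. Each is the 250 bases before the RefSeq gene start in GRCh38.p14, on the plus strand, at chr2:134918572-134918821 for CCNT2, chr20:41028572-41028821 for TOP1 and chr17:39461236-39461485 for CDK12. Capitals mark the GC box GGGCGG and the CCAAT box CCAAT on either strand.
CCNT2: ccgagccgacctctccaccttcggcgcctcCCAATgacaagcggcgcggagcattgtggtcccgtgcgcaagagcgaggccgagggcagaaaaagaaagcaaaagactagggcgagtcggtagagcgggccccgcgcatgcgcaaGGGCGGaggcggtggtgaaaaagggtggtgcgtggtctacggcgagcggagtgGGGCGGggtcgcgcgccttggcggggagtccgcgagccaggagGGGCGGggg
TOP1: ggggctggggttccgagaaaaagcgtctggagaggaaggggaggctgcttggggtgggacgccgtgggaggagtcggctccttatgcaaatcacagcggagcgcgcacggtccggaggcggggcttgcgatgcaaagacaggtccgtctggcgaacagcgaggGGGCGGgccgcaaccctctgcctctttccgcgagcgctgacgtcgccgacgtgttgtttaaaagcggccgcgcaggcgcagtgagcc
CDK12: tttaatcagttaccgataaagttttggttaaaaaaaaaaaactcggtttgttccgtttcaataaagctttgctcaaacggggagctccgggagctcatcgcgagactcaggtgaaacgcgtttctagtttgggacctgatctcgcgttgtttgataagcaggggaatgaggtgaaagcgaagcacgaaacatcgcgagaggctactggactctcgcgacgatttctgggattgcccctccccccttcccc
CCNT2 holds 3 GC boxes and 1 CCAAT box, TOP1 holds 1 GC box, and CDK12 holds neither. Windows of this length were read for 9 members, 12 windows in all, some genes having more than 1 start, and that of TCEA1 was not used here. Of these 12 windows 9 held a GC box, 3 a CCAAT box and 0 the TATA box TATAAA. They are not all separate, since the 2 windows of SUPT5H overlap and hold the same GC box, and the 2 of CDK13 overlap. By gene, 8 of the 9 members held a GC box. Of all 35116 RefSeq windows, 42.6% held a GC box, 32.01% a CCAAT box and 10.7% a TATA box. These matches describe letters in a window, and the arrays measured RNA, not factor binding.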

How the data were processed

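Gene expression was measured on 1 array for the anti-miR-361-3p group and 1 for the control group. The authors deposited a log2 value for each probe set, computed by RMA according to the submitters' processing notes. RMA equalises the distributions of the arrays, so a shift shared by most genes is partly removed. Its version is not given in the sources used here, nor is the genome build. Depth has no meaning for arrays, and their number limits the precision.

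Of 49386 probe sets 93 were array controls, 45253 had 1 gene symbol in the platform annotation, 1327 had several and 2713 had none. Symbols were updated through Entrez IDs to the RefSeq table of GRCh38.p14. The retained 24127 probe sets gave 11272 genes. With 1 array per group, differences were counted at 1.5-fold (0.58 on the log2 scale) and no test was made. Gene spans were cut into 10 deciles.

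The members and gene lists were chosen with earlier results of these data known. All members, all genes of the other elongation lists past 1.5-fold and the gene of each list with the largest difference are named, as are the measured genes of the CDK12 and short-lived lists; further genes of those complexes were named after their values were seen. The scripts were tested on simulated data. The results were recomputed without the filter, with a stricter one (75th percentile), with the brightest probe set or the median in place of the mean, after subtracting the median gene or a lowess curve of fraction 0.3, at 2-fold, and on plain _at probe sets. Positions of genes within their length deciles were not recomputed under these settings. Python 3.11.15, numpy 2.4.6, pandas 2.3.3 and statsmodels 0.14.6 were used.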

Additional observations from a re-analysis of the deposited data

Results flagged for a closer look

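The poly-A control probe sets, which belong to no gene comparison, stood a mean of 0.32 above their control level over 12 probe sets, 6.29 against 5.97. They were listed because they are a signal outside the gene data above its control level.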

How the results depend on the processing

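No paired analysis was possible because the labels give 1 sample per group, so no array could be left out either. Against 1 member higher and 3 lower, the brightest probe set gave 2 higher (CCNT2 and SUPT5H), and centring, by the median gene or by lowess, gave 0 higher. A 2-fold threshold gave 0 members higher and 1 lower, TCEA1. Plain _at probe sets measured 3 members, CDK9, CDK12 and SUPT5H, and gave 0 and 0. CCNT2, CDK13, TOP1 and TCEA1 have no such probe set, so their calls could not be checked that way. Of the other elongation genes, 5 higher became 2 with either centring, 0 at 2-fold and 2 with plain _at probe sets, and 10 lower became 3 with plain _at probe sets, where 14 were measured. Over all 11272 genes, 928 higher became 499 with the median centred, 547 with lowess and 139 at 2-fold. Lower genes went from 1602 to 787 at 2-fold. Plain _at probe sets measured only 3438 genes, of which 318 were higher and 507 lower. These counts do not compare directly with those over 11272 genes. The gap between the longest and shortest decile was -0.21 with no filter. TCEA1 ranged from -1.16 to -0.96 and TOP1 from -0.92 to -0.69 over 6 alternatives each that measured them. SUPT5H ranged from 0.06 to 0.64 and CDK13 from -1.08 to -0.46. CDK12 alone among the members changed sign, to 0.02 with the stricter filter, well short of the threshold. The cause was not tested. With the stricter filter CCNT2 and CDK13 were not measured and SUPT5H was the 1 member higher. Without the filter CDK13 was no longer past 1.5-fold. Signal over background limits CCNT1, CCNT2, CDK13, SUPT5H and SUPT6H, which had no probe set above the nonspecific range.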
